A study of Danio rerio with 2 samples.

Results

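*cckb*, *ccn2b*, *fgfbp2a*, *igfbp5b* and *fsta* are 5 of the 25434 features counted in scRNA-seq of zebrafish cranial neural crest cells (NCCs), and each encodes a secreted protein. Their Ensembl identifiers in the files are ENSDARG00000100052, ENSDARG00000104292, ENSDARG00000039964, ENSDARG00000025348 and ENSDARG00000052846, in that order. They were chosen by name, with results of these 2 libraries already known: 4 of them, all but *cckb*, are among the 14 genes that the study used to mark the intermediate domain of the pharyngeal arches, and all were proposed as genes with a lower level after treatment with YM. The ratios between the libraries given below are the values that chose the members and are therefore descriptions. The data did not bear out the shared description of these genes as lower in YM. *cckb*, *ccn2b* and *fgfbp2a* were lower in each class of first and second arch cells in which they could be counted. *igfbp5b* was lower in the ventral arch-like class, with a value that ranged from -1.46 to 0.43 (log2) over alternative settings, and higher in 2 other classes. *fsta* was not lower in any class beyond counting error with the main clustering.

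The first and second pharyngeal arches give rise to the jaw and its supporting skeleton, and their NCCs are patterned along the dorsal-ventral axis before cartilage forms. Edn1, released near the ventral end of the arches, acts on the Ednra receptors of NCCs, which signal through G proteins of the Gq/11 family. *hand2* is expressed in the ventral domain, *dlx5a* and *dlx6a* in the ventral and intermediate domains, and Jagged-Notch signaling with *jag1b* in the dorsal domain. Cells of the second arch express *hoxa2b* and *hoxb2a*, whereas cells of the first arch do not. The intermediate domain lies between the ventral and dorsal domains, where the jaw joint will form.

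Both libraries came from *Tg(sox10:mRFP);Tg(fli1a:EGFP)* embryos, with the promoters of *sox10* and *fli1a* driving the reporters used for sorting, and the heads of 60 embryos per condition were pooled at 36 hpf. One library (YM) was from embryos exposed to 100 µM YM-254890, an inhibitor of Gq/11, from 16 to 36 hpf, and the other (DMSO) from embryos given the vehicle over the same hours. Sorted cells were sequenced as 3′ single-cell libraries and unique molecular identifiers (UMIs) were counted per gene and cell. Each condition was sampled as 1 library, so no test between DMSO and YM was made, and all intervals are exact 95% intervals that cover counting error only, not the spread between embryos.

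After cell calling and the filters of the methods, 3613 DMSO cells with a median of 5866 UMIs and 4430 YM cells with a median of 6526.5 UMIs were kept, and 5 cell barcodes occurred in both libraries. Among transcripts of the transgenes, *eGFP* was at 7833 counts per 1000000 UMIs (CPM) in DMSO and 7010 CPM in YM cells, *mRFP* at 1.53 and 2.37 CPM. Cells were sorted by fluorescence, so these transcript levels do not test the sort. The cells formed 17 clusters, which were named from marker genes and joined into classes, with the 5 genes kept out of the genes that shaped the clusters. Ventral arch-like cells comprised clusters 3 and 8, dorsal arch 1-like cells clusters 0 and 6, and dorsal arch 2-like cells clusters 5 and 9. They numbered 728, 825 and 416 cells in DMSO and 621, 1038 and 710 cells in YM. The ventral arch-like share of all cells was 20.1% (18.9% to 21.5%) in DMSO and 14.0% in YM, and the dorsal arch 2-like share was 11.5% (10.5% to 12.6%) and 16.0% (15.0% to 17.1%). Whether cells moved between classes was not tested. Levels are UMIs of a gene per 1000000 UMIs of the class, and because 3′ counts are not corrected for capture, levels are compared between classes and libraries for 1 gene but not between genes.

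In DMSO cells, 98.5% of *cckb* UMIs, 95.9% of *ccn2b* UMIs and 99.4% of *fgfbp2a* UMIs lay in the 3 arch 1 and 2-like classes, which together held 54.5% of the cells. The corresponding shares were 83.3% for *igfbp5b* and 89.0% for *fsta*. In blood-like cells (71 DMSO and 65 YM cells, medians of 8566 and 9626 UMIs), which served as a measure of free RNA, *cckb* and *ccn2b* had no UMI, *fgfbp2a* had 2 UMIs in DMSO, *fsta* 1 UMI in DMSO and *igfbp5b* 1 UMI in each library. The level in blood-like cells was at most 2.97 CPM for any of the 5 genes, and the DMSO levels in ventral arch-like cells ranged from 25.1 to 43.3 CPM.

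**Figure D1:**
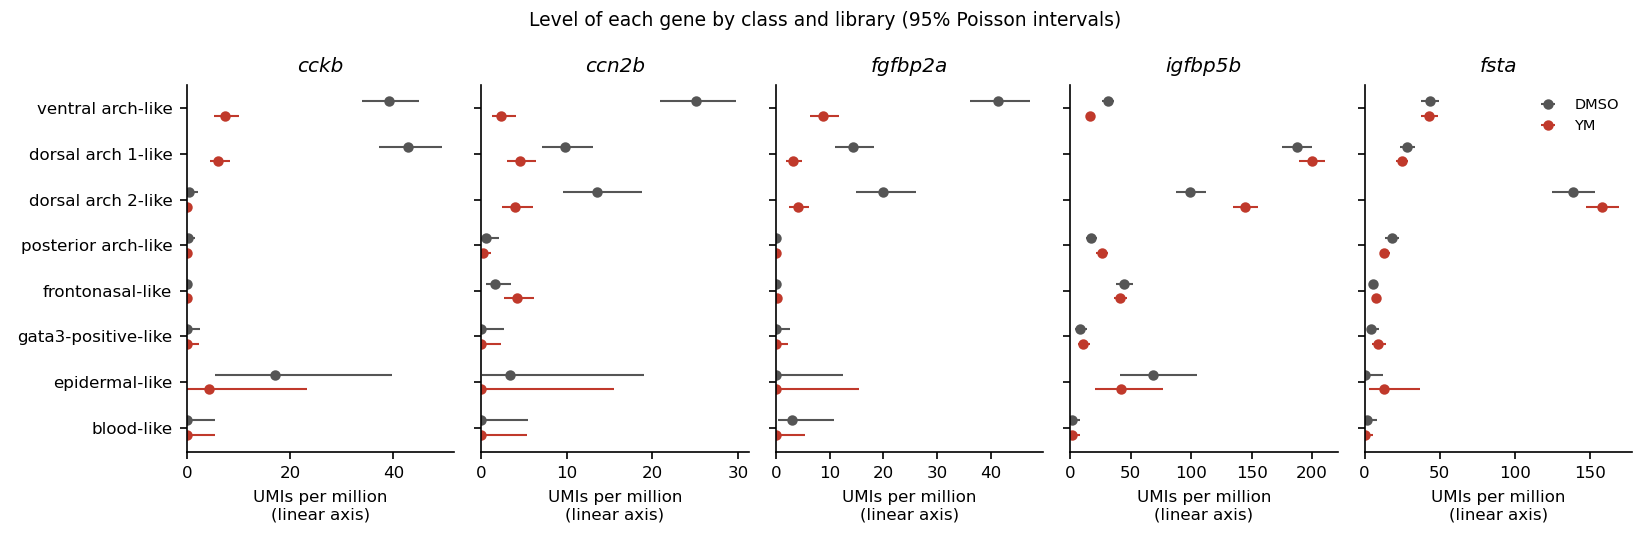
Level of each gene in CPM (linear axes that differ between genes) in 8 classes, for DMSO (grey) and YM (red), with points for the level of a class in 1 library and bars for exact 95% Poisson intervals. Outside the arch 1 and 2-like classes, *ccn2b* and *fgfbp2a* lie below 5 CPM, and *cckb* lies near 0 except in epidermal-like cells (17.0 CPM in DMSO from 5 UMIs). In the arch 1 and 2-like classes with counts above the floor, the YM points of these 3 genes lie to the left of the DMSO points, whereas those of *igfbp5b* and *fsta* in dorsal arch 2-like cells lie to the right.

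*cckb* encodes a precursor of cholecystokinin, a peptide hormone of gut and brain whose receptors in mammals couple to Gq. In ventral arch-like cells, 202 UMIs were counted in DMSO (39.2 CPM) and 38 UMIs in YM (7.42 CPM, 5.25 to 10.2), a level 5.29-fold lower in YM (log2 ratio -2.40, -2.94 to -1.90). In dorsal arch 1-like cells, 198 UMIs (42.9 CPM) in DMSO stood against 41 UMIs (6.11 CPM) in YM, 7.02-fold lower (-2.81, -3.33 to -2.32). Over the alternative settings the ventral arch-like value ranged from -5.84 to -2.07 and the dorsal arch 1-like value, in the 9 settings that gave one, from -3.35 to -2.58. When all 2000 variable genes shaped the clusters, the dorsal arch 1-like cells of at least 1 library held no *cckb* UMI. The *cckb* UMIs of this class thus depended on the clustering. With the main clustering, the intervals of the DMSO and YM levels did not overlap in either class, and the 2 DMSO levels did not differ beyond their intervals.

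Nearly all *cckb* UMIs came from cells without second arch markers. In dorsal arch 2-like cells the gene had 1 UMI in 416 DMSO cells and none in 710 YM cells, so no fold is given. At an equal depth of 3500 UMIs per cell, 0 of 397 DMSO cells of that class had a UMI, which allows a share of cells with a UMI of up to 0.756% by the floor of 3 counts (exact 95% upper limit 0.925%). Within the arches, cells with a *cckb* UMI had a *hoxb2a* UMI in 2 of 86 cases (2.33%), compared with 342 of the 1751 other DMSO cells (19.5%). Of the same 86 cells, 79 had a *dlx5a* UMI (91.9%, against 40.3% of the others), 67 had a *dlx4a* UMI (77.9% against 26.1%) and 40 had a *hand2* UMI (46.5% against 28.2%).

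*cckb* UMIs were concentrated in few cells. Of the DMSO dorsal arch 1-like cells, the 10 with the most UMIs held 50.5% of all *cckb* UMIs, and 1 ventral arch-like cell held 23 UMIs, so that the counting intervals, which treat UMIs as independent, are too narrow for this gene. The ventral arch-like cells had medians of 6864 UMIs in DMSO and 7770 in YM, and thinning left out 25 and 12 of them. At 3500 UMIs per cell, the share of ventral arch-like cells with a UMI was 6.40% (4.71% to 8.47%) in DMSO and 2.30% (1.26% to 3.83%) in YM, and 7.69% and 3.06% before thinning. Positive cells held 2.58 and 1.71 UMIs on average after thinning. Dorsal arch 1-like cells had medians of 5566 and 6305.5 UMIs, and thinning left out 88 and 69 of them. Their shares were 5.56% (4.02% to 7.47%) in DMSO and 0.722% (0.291% to 1.48%) in YM (6.30% and 1.54% before thinning), with 2.83 and 2.14 UMIs per positive cell. Both the share of positive cells and the UMIs per positive cell were thus lower in YM, but the YM means rest on 14 and 7 positive cells.

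The 2 clusters of the ventral arch-like class and those of the dorsal arch 1-like class differed in DMSO level of *cckb* beyond their intervals. The dorsal arch 2-like clusters held too few UMIs to compare. In cluster 0 the count was 71 UMIs in DMSO and 6 in YM (27.2 and 1.40 CPM, log2 ratio -4.27, -5.77 to -3.08), whereas in cluster 6, whose leading genes include histone genes, it was 127 and 35 UMIs (63.5 and 14.4 CPM, -2.14, -2.73 to -1.60). In cluster 3 the counts were 179 and 38 UMIs (53.1 and 11.6 CPM, log2 ratio -2.20, -2.74 to -1.69). In cluster 8, which is led by *hmx4*, *hand2* and *gsc* and has *hoxa2b* among its 10 leading genes, 23 UMIs in DMSO stood against 0 in YM, a log2 ratio of at most -2.99 when 3 counts in the class are taken as the floor for YM.

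*ccn2b* encodes a connective tissue growth factor, a matrix-associated protein of the CCN family that in mammals modulates growth factor signaling in cartilage. With the main clustering, it had the lowest ratio of the 5 genes in ventral arch-like cells, with an interval that overlapped that of *cckb*. There, 129 UMIs (25.1 CPM, 20.9 to 29.8) were counted in DMSO and 12 UMIs (2.34 CPM, 1.21 to 4.09) in YM. The level in YM was 10.7-fold lower (log2 ratio -3.42, -4.41 to -2.56). Over the alternative settings this ratio ranged from -3.79 to -2.81, whereas that of *cckb* reached -5.84. In dorsal arch 2-like cells the counts were 36 and 20 UMIs (13.6 and 3.90 CPM, -1.80, -2.66 to -0.97), and the ratio was -0.63 when all variable genes shaped the clusters. In dorsal arch 1-like cells they were 45 and 30 UMIs (9.75 and 4.47 CPM, -1.13, -1.84 to -0.43), and this value reached a 2-fold lower level in 8 of the 10 alternative settings that kept the class. The intervals of the ventral arch-like and dorsal arch 1-like ratios did not overlap. Frontonasal-like cells held 6 UMIs in DMSO and 23 in YM, the opposite direction (1.38, 0.04 to 2.96).

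In DMSO, the 10 cells with the most UMIs held 31.8% of the *ccn2b* UMIs of ventral arch-like cells and 60.0% of those of dorsal arch 1-like cells, with at most 6 UMIs in 1 cell. At equal depth, 6.54% (4.83% to 8.63%) of ventral arch-like DMSO cells and 0.657% (0.179% to 1.67%) of YM cells had a UMI, against 9.89% and 1.61% before thinning. The 4 positive YM cells left after thinning held 1 UMI each, which is the smallest level that can be counted. The dorsal arch 1-like shares of 2.44% (1.45% to 3.83%) and 1.75% (1.03% to 2.79%) overlapped (3.39% and 2.02% before thinning). Those of dorsal arch 2-like cells also overlapped, at 3.27% (1.75% to 5.53%) in DMSO and 1.17% (0.508% to 2.30%) in YM. In blood-like cells, 0 of 70 DMSO and 0 of 64 YM cells had a *ccn2b* UMI, which allows shares of cells with a UMI of up to 4.29% and 4.69% by the floor of 3 counts (exact 95% upper limits 5.13% and 5.60%), so that this background is known only coarsely.

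*fgfbp2a* encodes an FGF binding protein, a member of a family whose best known member in mammals releases FGFs from the extracellular matrix. With the main clustering its ratios in the 3 arch classes had overlapping intervals, while over the alternative settings the ventral arch-like ratio ranged from -2.47 to -2.02, that of the first dorsal class from -3.21 to -1.02 and that of the second from -2.65 to -1.14. In ventral arch-like cells, 213 UMIs (41.4 CPM, 36.0 to 47.3) were counted in DMSO and 45 (8.79 CPM, 6.41 to 11.8) in YM (log2 ratio -2.23, -2.73 to -1.77). The counts were 66 and 21 UMIs in dorsal arch 1-like cells (14.3 and 3.13 CPM, -2.19, -2.98 to -1.47) and 53 and 21 UMIs in dorsal arch 2-like cells (-2.29, -3.09 to -1.53). These levels were 4.71-, 4.57- and 4.88-fold lower in YM, and within each class the intervals of the DMSO and YM levels did not overlap. At equal depth, 8.96% (6.95% to 11.3%) of ventral arch-like DMSO cells and 1.81% (0.905% to 3.21%) of YM cells had a UMI (13.2% and 3.22% before thinning). The mean count per positive cell was 1.54 in DMSO and 1.73 in YM, the latter over 11 cells. In the dorsal classes the means were 1.39 and 1.11 for arch 1 and 1.31 and 1.25 for arch 2, over 9 and 8 positive YM cells. The equal-depth shares of dorsal arch 1-like cells were 3.12% (1.99% to 4.65%) in DMSO and 0.929% (0.426% to 1.76%) in YM. Those of dorsal arch 2-like cells, 3.27% (1.75% to 5.53%) in DMSO and 1.17% (0.508% to 2.30%) in YM, overlapped. Fewer cells with a UMI were thus found in YM beyond the intervals in the ventral arch-like and dorsal arch 1-like classes only. The means per positive cell rest on few cells.

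*igfbp5b* encodes an IGF binding protein, which holds insulin-like growth factors outside the cell. Its level in DMSO was highest in dorsal arch 1-like cells (864 UMIs, 187 CPM, 175 to 200), followed by dorsal arch 2-like (264 UMIs, 99.4 CPM, 87.8 to 112), epidermal-like (20 UMIs, 68.1 CPM, 41.6 to 105), frontonasal-like (168 UMIs, 44.4 CPM, 37.9 to 51.6) and ventral arch-like cells (160 UMIs, 31.1 CPM, 26.5 to 36.3). The epidermal-like level did not differ beyond its interval from those of its 2 neighbors in this order. It was lower in posterior arch-like (59 UMIs, 17.0 CPM) and *gata3*-positive-like cells (11 UMIs, 7.79 CPM). In the arch 1 and 2-like clusters, the level ranged from 29.6 CPM in cluster 3 to 247 CPM in cluster 0, of which *igfbp5b* was the leading gene.

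The ratio of *igfbp5b* differed in sign between classes. In ventral arch-like cells the YM library held 85 UMIs (16.6 CPM, 13.3 to 20.5), a level 1.87-fold lower than in DMSO (log2 ratio -0.90, -1.30 to -0.52). In dorsal arch 1-like cells, 1339 UMIs in YM (200 CPM, 189 to 211) gave a ratio of 0.09 (-0.03 to 0.22). In dorsal arch 2-like cells, 741 UMIs in YM (144 CPM, 134 to 155) gave a level 1.45-fold higher than in DMSO (0.54, 0.33 to 0.75). Posterior arch-like cells, with 129 UMIs in YM (26.0 CPM), were also higher (0.61, 0.15 to 1.08). Over the 3 classes together, the level was 104 CPM in DMSO and 128 CPM in YM (0.30, 0.20 to 0.40). At equal depth, 7.40% (5.57% to 9.59%) of ventral arch-like cells were positive in DMSO and 2.96% (1.76% to 4.63%) in YM (11.4% and 5.80% before thinning). The order was opposite for dorsal arch 2-like cells, with 17.9% (14.2% to 22.0%) and 24.7% (21.5% to 28.1%) at equal depth and 23.6% and 32.7% before thinning. These had medians of 6244.5 and 6868 UMIs, and thinning left out 19 and 29 of them. In blood-like cells, 0 of 70 DMSO cells and 1 of 64 YM cells were positive for *igfbp5b* at equal depth. The ventral arch-like value did not keep its size or direction over the alternative settings. It was -0.024 when the cells with the highest doublet scores were removed and the rest clustered anew. Those scores were judged not to have worked, and the part of doublets in the ratio was not tested. The ratio was 0.43 without regression on the cell cycle, -1.31 at equal depth and -1.46 when all variable genes shaped the clusters.

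*fsta* encodes a follistatin, which binds activins and some BMPs and keeps them from their receptors. It was highest in dorsal arch 2-like cells, with 368 UMIs in DMSO (139 CPM, 125 to 153), and lower in ventral arch-like (223 UMIs, 43.3 CPM, 37.8 to 49.4) and dorsal arch 1-like cells (130 UMIs, 28.2 CPM, 23.5 to 33.5). No class interval overlapped that of its neighbor in this order. In YM the UMIs numbered 812 (158 CPM, log2 ratio 0.19, 0.01 to 0.37), 219 (42.8 CPM, -0.02, -0.29 to 0.26) and 165 (24.6 CPM, -0.20, -0.54 to 0.15), respectively. The interval of the ventral arch-like ratio, which covers counting error only, lay within 2-fold in either direction. With 1 library per condition, it sets no limit to the effect of YM. Over the alternative settings, the lowest value of this ratio was -0.31 (-0.56 to -0.05), with all variable genes shaping the clusters. The highest was 0.36 (0.14 to 0.58), without regression on the cell cycle. Within the dorsal arch 2-like class, the ratio was 0.55 (0.29 to 0.82) in cluster 9, which is led by *pax9*, and -0.12 (-0.37 to 0.13) in cluster 5. At equal depth, 28.0% (23.6% to 32.7%) and 28.3% (25.0% to 31.9%) of dorsal arch 2-like cells had an *fsta* UMI (36.5% and 42.4% before thinning).

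**Figure D2:**
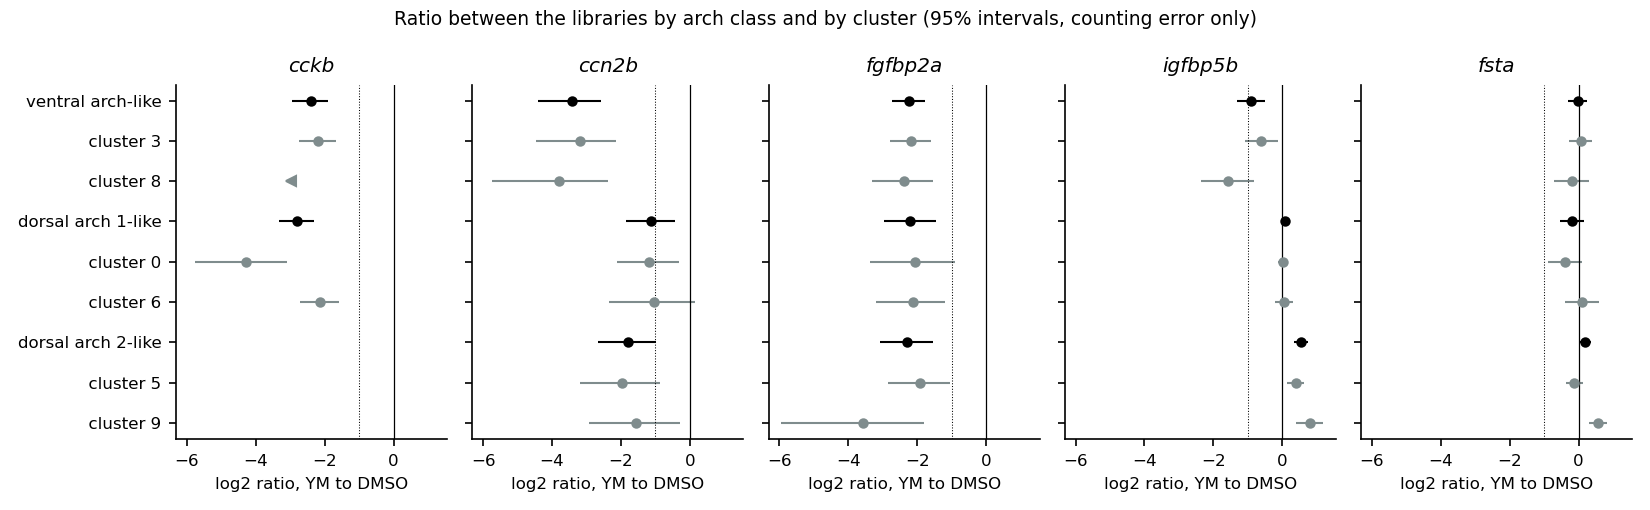
Log2 ratio of YM to DMSO for each gene in the 3 arch classes (black) and in the 2 clusters that make up each class (grey), with 95% intervals for counting error, a solid line at 0 and a dotted line at a 2-fold lower level. The triangle for *cckb* in cluster 8 marks the bound of -2.99, and no point is drawn for *cckb* in the arch 2-like units, where counts were at or under the floor. All points of *cckb*, *ccn2b* and *fgfbp2a* lie left of -1, while those of *igfbp5b* and *fsta* lie on both sides of 0.

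Over all genes with at least 20 UMIs in a class, few had ratios of this size. In ventral arch-like cells, 155 of 9418 genes (1.65%) were lower in YM by at least 2-fold and 121 (1.28%) higher, and 3 of the 5 genes (*cckb*, *ccn2b* and *fgfbp2a*) were lower and none higher. Among the dorsal arch 1-like cells, 151 of 9646 genes (1.57%) were lower and 130 (1.35%) higher, with the same 3 genes lower. In dorsal arch 2-like cells, 139 of 8660 genes (1.61%) were lower and 165 (1.91%) higher, with 2 of the 4 genes that reached 20 UMIs (*ccn2b* and *fgfbp2a*) lower and *cckb* under the minimum. The medians over all genes were -0.03, -0.03 and -0.04 in the 3 classes in this order. Over the 5 genes the median was -2.23 for the ventral and -1.13 for the first dorsal class, and it was -0.80 over the 4 genes counted in the other. Since the 5 genes were chosen with these ratios known, nothing is read from the shares.

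To ask which arch and domain expressed each gene, arch cells were thinned to 3500 UMIs and sorted by their UMIs of patterning genes, which does not depend on the clusters within the arches. Cells with a *hoxa2b* or *hoxb2a* UMI were taken as arch 2 and all others as arch 1. Cells with a *hand2* UMI were taken as ventral, those with a *dlx5a* or *dlx6a* UMI but no *hand2* UMI as intermediate-to-ventral, and those with none of the 3 as dorsal or undetected. Of 1837 DMSO cells, the 3 gates held 306, 353 and 590 cells in arch 1 and 227, 143 and 218 cells in arch 2. The gates are coarse, because a cell that expresses a gate gene at a low level can lack its UMI. For the arches a missed UMI errs 1 way, since an arch 2 cell without a *hoxa2b* or *hoxb2a* UMI was counted as arch 1. At this depth, 170 of 397 dorsal arch 2-like DMSO cells (42.8%) had a *hoxb2a* UMI. The arch 1 levels below can therefore include arch 2 cells. Some cells of the dorsal arch 1-like class were also counted as arch 2. In DMSO, 3 of its 23 *fgfbp2a*-positive cells and 4 of 714 others had a *hoxb2a* UMI. Whether these were arch 2 cells was not tested.

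In DMSO cells and with these gates, all 5 genes had their highest level in *dlx5a*/*dlx6a*-positive, *hand2*-negative cells of 1 arch. *cckb* was at 101 CPM (88.5 to 115) in that gate of arch 1 and at 71.6 CPM (60.6 to 84.0) in the *hand2*-positive gate, against 0.540 CPM (0.0654 to 1.95) in arch 1 cells negative for all 3 genes. In arch 2 its counts were 3, 10 and 0 UMIs, with a highest level of 10.1 CPM (4.83 to 18.5). The order of the 2 *dlx*- or *hand2*-positive gates turned when gates were set on unthinned counts, to 73.7 CPM in the *dlx5a*/*dlx6a*-positive and 127 CPM in the *hand2*-positive gate.

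*ccn2b* and *fgfbp2a* were highest in the *dlx5a*/*dlx6a*-positive gate of arch 2. *ccn2b* was at 62.5 CPM (47.9 to 80.1) there and, without overlap of the intervals, at 35.2 CPM (27.9 to 43.8) in the same gate of arch 1. The shares of cells with a *ccn2b* UMI at equal depth overlapped between these gates, at 11.9% (7.08% to 18.4%) in arch 2 and 9.35% (6.52% to 12.9%) in arch 1. *ccn2b* was lower in the *hand2*-positive gates, at 3.67 CPM (1.35 to 7.99) in arch 2 and 11.0 CPM (6.96 to 16.5) in arch 1. *fgfbp2a* was at 69.5 CPM (54.1 to 88.0) and 49.7 CPM (41.0 to 59.8), with overlapping intervals, and at 18.4 and 27.7 CPM in the *hand2*-positive gates of arches 2 and 1. When 2 UMIs of the gate genes were required, its highest level was that of the arch 1 gate (74.6 CPM). By UMIs, both genes were thus lower in *hand2*-positive cells than in cells with *dlx5a* or *dlx6a* alone, in both arches, beyond their intervals. At equal depth, the *ccn2b* shares of *hand2*-positive cells were also lower beyond their intervals, at 2.61% (1.14% to 5.09%) in arch 1 and 1.76% (0.482% to 4.45%) in arch 2. Those of *fgfbp2a* overlapped. They were 7.84% (5.09% to 11.4%) against 8.50% (5.81% to 11.9%) in arch 1 and 5.29% (2.76% to 9.05%) against 14.0% (8.76% to 20.8%) in arch 2.

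*igfbp5b* was at 201 CPM (183 to 220) in the *dlx5a*/*dlx6a*-positive gate of arch 1 and 190 CPM (164 to 220) in that of arch 2, which did not differ beyond their intervals. It was lower in cells negative for all 3 genes (112 CPM, 101 to 123, in arch 1 and 57.5 CPM, 45.7 to 71.5, in arch 2) and lowest in *hand2*-positive cells (18.1 and 20.8 CPM). With 2 UMIs of the gate genes required, the highest *igfbp5b* level was that of the *dlx5a*/*dlx6a*-positive gate of arch 2 (213 CPM). *fsta* was at 173 CPM (148 to 201) in the *dlx5a*/*dlx6a*-positive gate of arch 2, at 95.8 CPM (80.3 to 113) in arch 2 cells negative for all 3 genes, and at 75.7 CPM (64.8 to 87.9) in the *dlx5a*/*dlx6a*-positive gate of arch 1. The *hand2*-positive gates held 25 *fsta* UMIs in arch 2 and 23 in arch 1 (11.0 CPM in the latter).

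**Figure D3:**
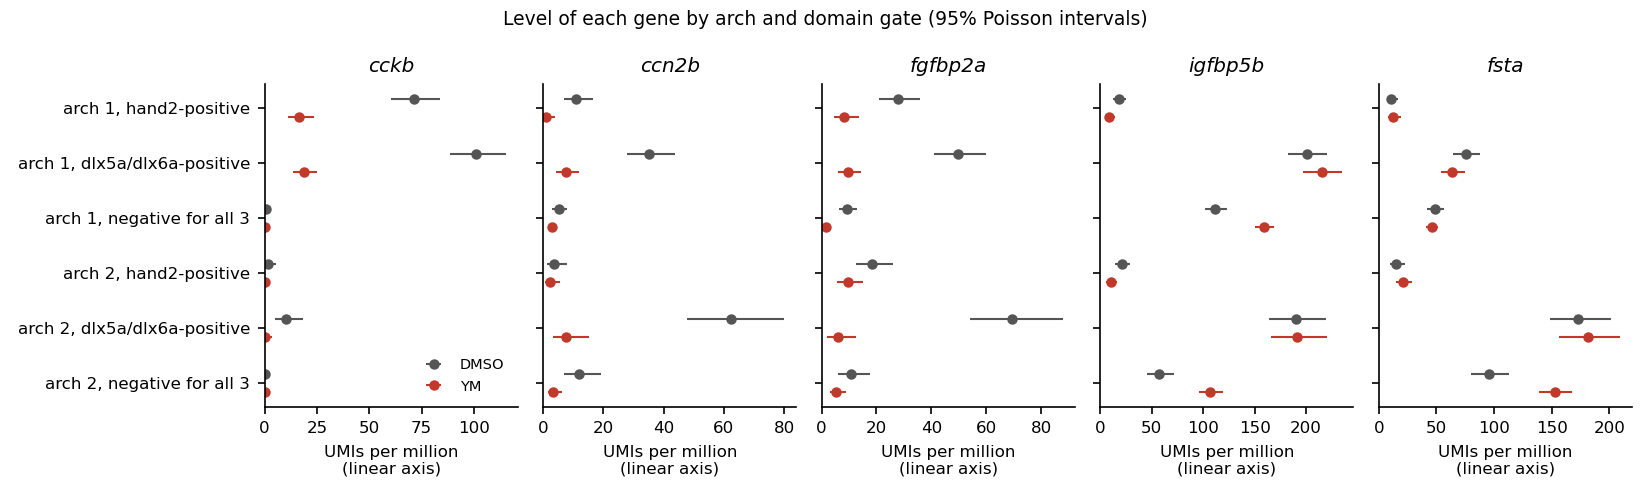
Level of each gene in CPM (linear axes that differ between genes) in arch cells sorted by UMIs of *hoxa2b*, *hoxb2a*, *hand2*, *dlx5a* and *dlx6a* after thinning to 3500 UMIs, for DMSO (grey) and YM (red), with exact 95% Poisson intervals. The *dlx5a*/*dlx6a*-positive gates hold the highest DMSO level of every gene, and the YM points of *cckb*, *ccn2b* and *fgfbp2a* in these gates lie below 20 CPM.

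The same gates were compared between the libraries. As a limit, *dlx5a* and *dlx6a* were themselves lower in YM, as was *hand2* in ventral arch-like and dorsal arch 1-like cells. A gate therefore need not hold the same cells in both libraries. In the *dlx5a*/*dlx6a*-positive gate of arch 2, *fgfbp2a* was lower in YM by a log2 ratio of -3.58 (-5.07 to -2.38, from 69 to 6 UMIs) and *ccn2b* by -3.01 (-4.28 to -1.94, from 62 to 8 UMIs). In that gate of arch 1 the ratios were -2.37 (-3.09 to -1.72) for *fgfbp2a*, -2.23 (-3.05 to -1.48) for *ccn2b* and -2.43 (-2.92 to -1.96) for *cckb*. *cckb* in the *hand2*-positive gate of arch 1 was at -2.10 (-2.72 to -1.53). For the *hand2*-positive cells of arch 2, *fgfbp2a* was at -0.95 (-1.90 to -0.04) and *ccn2b*, with 6 and 4 UMIs, at -0.71 with an interval from -2.98 to 1.37. In the *hand2*-positive gate of arch 1, *fgfbp2a* was at -1.73 (-2.66 to -0.90) and *ccn2b* at -3.31 (-6.44 to -1.29, from 23 to 2 UMIs). In cells negative for all 3 genes, *fgfbp2a* was at -2.63 (-3.81 to -1.58) in arch 1 and -0.97 (-2.09 to 0.14) in arch 2. *ccn2b* was at -0.79 (-1.77 to 0.20) and -1.83 (-3.12 to -0.62) there, in the same order.

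By UMIs, *igfbp5b* split by gate in the same way in both arches. In *hand2*-positive cells it was lower in YM, by -1.03 (-1.97 to -0.15) in arch 1 and -1.04 (-1.95 to -0.18) in arch 2. In *dlx5a*/*dlx6a*-positive cells the ratio was 0.10 (-0.08 to 0.29) and 0.01 (-0.29 to 0.30). In cells negative for all 3 genes it was higher, by 0.51 (0.35 to 0.68) in arch 1 and 0.90 (0.54 to 1.27) in arch 2. At equal depth, the shares of cells with an *igfbp5b* UMI differed beyond their intervals only in arch 2 cells negative for all 3 genes. They were 11.0% (7.18% to 15.9%) in DMSO and 21.2% (17.3% to 25.6%) in YM. The shares of the *hand2*-positive gates overlapped, at 2.94% and 1.29% in arch 1, from 9 and 3 positive cells, and 5.73% and 2.76% in arch 2. *fsta* was higher in YM in arch 2 cells negative for all 3 genes (0.67, 0.39 to 0.96), from 135 to 451 UMIs, and its intervals included 0 in the 5 other gates. Equal-depth shares of *fsta* in arch 2 cells negative for all 3 genes overlapped, at 22.9% (17.5% to 29.1%) in DMSO and 29.2% (24.7% to 33.9%) in YM. Cells negative for all 3 genes made up 32.1% of arch cells in DMSO and 41.9% in YM for arch 1, and 11.9% and 17.3% for arch 2.

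**Figure D4:**
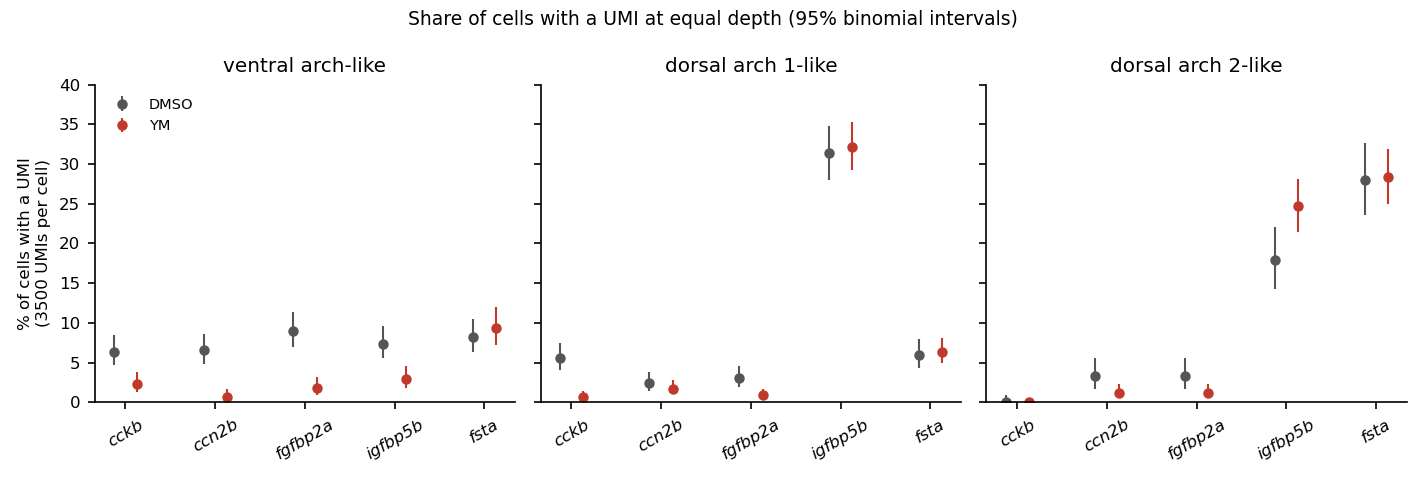
Share of cells with a UMI of each gene, in percent, in the 3 arch classes after thinning every cell to 3500 UMIs, for DMSO (grey) and YM (red), with exact 95% binomial intervals. The shares of *cckb*, *ccn2b* and *fgfbp2a* in ventral arch-like cells are 6.40% to 8.96% in DMSO and 0.657% to 2.30% in YM, and those of *fsta* overlap between the libraries in every class.

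Single cells seldom held UMIs of several of the 5 genes. At equal depth, 8.68% (6.70% to 11.0%) of ventral arch-like DMSO cells had UMIs of at least 2 of them, against 2.30% (1.26% to 3.83%) in YM. The shares among dorsal arch 2-like cells were 10.8% (7.95% to 14.3%) in DMSO and 9.40% (7.31% to 11.8%) in YM, and overlapped. Among DMSO arch cells, 14 of 86 *cckb*-positive cells had an *fgfbp2a* UMI (16.3%, against 4.85% of other cells), but 3 of 86 had a *ccn2b* UMI (3.49% against 4.23%). Of 77 *ccn2b*-positive cells, 28 had an *fsta* UMI (36.4% against 10.5%) and 11 an *fgfbp2a* UMI (14.3% against 5.00%). Of 213 *fsta*-positive cells, 15 had a *hand2* UMI (7.04% against 31.9%), and of 354 *igfbp5b*-positive cells, 22 did (6.21% against 34.5%).

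The genes whose level over 13 DMSO clusters was most like that of each gene were named from 8001 genes by Pearson correlation of log2(CPM + 1), as a description over clusters that share 1 library and differ in depth. For *cckb* these were *lyrm9* (r = 0.86), *dlx6a* (0.81) and *dlx4b* (0.79). For *ccn2b* they were *dlx4a* (0.96), *mab21l1* (0.94) and *dlx4b* (0.93), and for *fgfbp2a* *plekhg5a* (0.91), *barx1* (0.90) and *dlx4b* (0.89). For *igfbp5b* they were *si:ch211-246i5.5* (0.92), *arrdc2* (0.91) and *cnot3a* (0.91), and for *fsta* *fgf3* (0.93), *epha2b* (0.93) and *ednrab* (0.93). Among the 5 genes, r ranged from 0.22 for *cckb* with *fsta* to 0.82 for *ccn2b* with *fgfbp2a*.

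Of the 10 other intermediate domain markers of the study, 6 of 10 were lower in YM by at least 2-fold in ventral arch-like, 4 of 9 in dorsal arch 1-like and 4 of 8 in dorsal arch 2-like cells, with medians of -1.19, -0.80 and -0.93. *dlx4a*, a homeobox gene, had the lowest ratio in ventral arch-like cells, -2.63 (-2.80 to -2.47), and was at -1.89 and -1.99 in dorsal arch 1- and arch 2-like cells. *dlx3b* and *dlx4b* were lower by at least 2-fold in all 3 classes, and *nkx3-2*, a homeobox gene of the jaw joint, in both classes in which it reached 20 UMIs. *grem2b*, which encodes an antagonist of BMPs, was at -1.13 (-1.31 to -0.95) in ventral arch-like and -1.28 in dorsal arch 2-like cells but at -0.02 (-0.16 to 0.13) in the remaining class. *emx2* was at -1.24 (-1.87 to -0.65) in ventral arch-like cells and above -1 in the others. *foxc1b*, *foxd1*, *msx1a* and *shox* did not reach a 2-fold lower level in any class in which they had 20 UMIs.

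**Figure D5:**
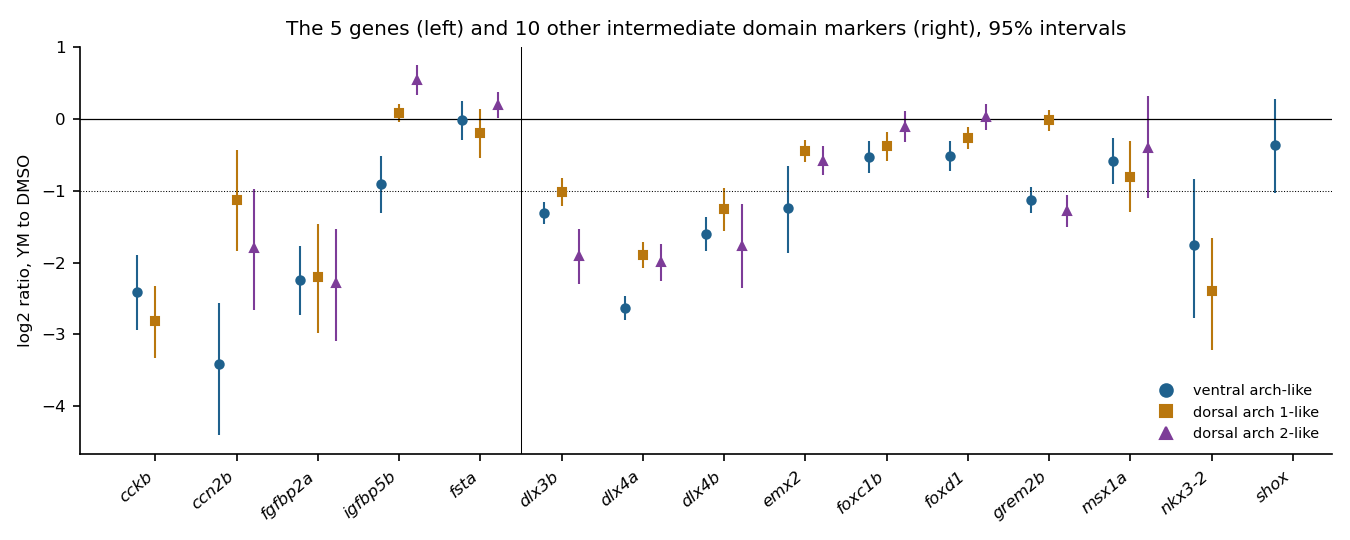
Log2 ratio of YM to DMSO for the 5 genes (left of the vertical line) and 10 other intermediate domain markers (right) in ventral arch-like (circles), dorsal arch 1-like (squares) and dorsal arch 2-like cells (triangles), for genes with at least 20 UMIs in the class, with 95% intervals for counting error and a dotted line at a 2-fold lower level. *ccn2b* in ventral arch-like cells, at -3.42, is the lowest point, and *igfbp5b* in dorsal arch 2-like cells, at 0.54, the highest.

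Close relatives of the 5 genes were examined from lists of their families, and the counts and medians of these lists include the 5 genes themselves. In the cholecystokinin list, *ccka* had no UMI in arch cells. In the CCN list, 3 of 9 genes found in the files reached 20 UMIs in each class, and *ccn2b* was the gene lower by at least 2-fold. Its paralog *ccn2a* had ratios of 0.37 (-0.17 to 0.93), 0.58 (-0.03 to 1.23) and 0.02 (-0.74 to 0.81) in the ventral and the 2 dorsal classes. *ccn1*, another gene of the family, had ratios of 0.22 (-0.19 to 0.63), 0.55 (0.17 to 0.94) and 0.69 (0.18 to 1.22) in the same order. The paralogs *ccn2b* and *ccn2a* therefore had ratios whose intervals did not overlap in any of the 3 classes.

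The relatives of *fgfbp2a* differed from this. Its paralog *fgfbp2b* was lower in YM in all 3 classes, with ratios of -1.54 (-2.57 to -0.60, 38 and 13 UMIs), -1.65 (-2.72 to -0.65, 28 and 13 UMIs) and -3.20 (-5.21 to -1.61, 19 and 4 UMIs) in the same order. Both FGF binding proteins that could be counted were thus lower by at least 2-fold in each class. Reads that fit both paralogs could have been assigned to either or left out, since the treatment of such reads is not given in the sources used here.

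In the IGF list of 17 genes, none of the 6 genes counted in ventral arch-like cells was lower or higher by at least 2-fold, with a median of -0.08. None was lower in the dorsal classes either, and *igf2a* was higher in dorsal arch 1-like cells, with 5 and 17 UMIs (1.22, -0.27 to 3.02). *igfbp5a*, the paralog of *igfbp5b*, had no UMI in arch cells. The ligand gene *igf2b* was at -0.05 (-0.37 to 0.27) in ventral arch-like cells and the receptor gene *igf1rb* at 0.15 (-0.15 to 0.46).

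In the follistatin and activin list of 16 genes, none of the 9, 10 and 9 genes counted in the 3 classes was lower or higher by at least 2-fold. The medians were -0.02, -0.11 and 0.07, and the first of these is the ratio of *fsta* itself. *fstb*, the paralog of *fsta*, had at most 4 UMIs in any arch class of a library. Of the activin subunit genes in dorsal arch 1-like cells, *inhbaa* was at -0.86 (-1.46 to -0.26) and *inhbb* at -0.51 (-1.16 to 0.15). *gdf11*, which encodes another ligand bound by follistatin, was at -0.01 (-0.45 to 0.43) in ventral arch-like cells, and its ratio for dorsal arch 2-like cells was 0.05 (-0.31 to 0.42).

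Genes that mark the domains are given for the arch classes as context. *hand2* was at 566 and 498 CPM in ventral arch-like cells (-0.18, -0.26 to -0.11), and its 77.8 and 33.2 CPM among dorsal arch 1-like cells gave -1.23 (-1.48 to -0.98). *dlx6a* was lower in all 3 classes, with its lowest ratio, -1.93 (-2.47 to -1.42), in dorsal arch 2-like cells. *jag1b*, the dorsal Notch ligand gene, was higher in all 3, most in ventral arch-like cells (a log2 ratio of 0.97). Of the 13 genes in this list, 0, 2 and 1 were lower by at least 2-fold in the 3 classes. Of the markers of other cell types, the 7 macrophage markers summed to at most 0.777 CPM in any class and library. The erythroid markers summed to 222 CPM in DMSO and 11.2 CPM in YM dorsal arch 1-like cells, and 3 of 9 and 2 of 9 were at 0 there. Neutrophil markers summed to 16.9 to 21.9 CPM in the 3 DMSO classes and 6.24 to 8.49 CPM in the YM classes. Epidermal markers summed to 232, 270 and 226 CPM in the ventral and the 2 dorsal classes of DMSO and to 189, 334 and 248 CPM in those of YM. The part of these markers in the ratios of the 5 genes was not tested. Blood-like cells, which hold the erythroid cells, had no UMI of *cckb* or *ccn2b*. In DMSO they held 2 UMIs of *fgfbp2a*, 1 of *igfbp5b* and 1 of *fsta*. Epidermal-like DMSO cells held 5 UMIs of *cckb*, 1 of *ccn2b* and 20 of *igfbp5b*.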

How the data were processed

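The deposited files hold UMI counts per gene for every barcode of 2 droplet libraries, made by the authors with Cell Ranger 5.0.1 per the labels (the file headers name Cell Ranger 4) on GRCz11, with no normalization. Cells were called here with the order-of-magnitude rule and an empty-droplet test of the Cell Ranger kind, and kept with 200 to 3000 (DMSO) or 200 to 3500 genes (YM) and under 5% mitochondrial UMIs. This gave 3613 and 4430 cells with 22167716 and 30431863 UMIs. The cell numbers of the study's methods were slightly higher.

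Cells were clustered in Seurat 5.3.0 (R 4.3.3; the labels name Seurat 4.3.0 for the authors) with regression on cell cycle scores, 30 principal components and resolution 0.8, after 91 genes, the 5 described genes and their lists included, were kept out of the 2000 variable genes. Clusters were named from marker genes. Names were rebuilt here and can differ from those of the study. Doublets were not removed, since Scrublet (scanpy 1.11.5) called 1 cell in each library and was judged not to have worked. The doublet alternative removed the 108 DMSO and 160 YM cells with the highest scores all the same and clustered the rest anew.

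UMIs were summed by class and library and scaled to 1000000 UMIs of the class. Intervals (95%) are exact Poisson for levels, exact conditional binomial for ratios and Clopper-Pearson for shares (scipy 1.17.1). They treat UMIs as independent, although those of 1 cell are not. A gene was called lower or higher past 2-fold with at least 20 UMIs in the class. Against 0 counts, a floor of 3 counts in the class was used. Shares of cells were compared after random thinning to 3500 UMIs per cell. TMM factors came from edgeR 4.0.16. Scripts were checked on simulated counts.

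Named genes were the 5 genes, members of the fixed lists past 2-fold with 20 UMIs in the class, close relatives, context genes, and the 3 genes most like each in their level over clusters with at least 20 DMSO cells. Context and list genes given without reaching 2-fold were named after their values were seen. The genes and lists were chosen with earlier results of these data known. Alternatives covered cell calling, gene limit, variable genes, resolution, cell cycle, scaling, depth, doublets, classes, low counts and gates. The Ensembl IDs of 4 of the 5 genes were found in the gene name table.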

Additional observations from a re-analysis of the deposited data

Results flagged for a closer look

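*ccn2b* had log2 ratios of YM to DMSO of opposite sign in different classes, with intervals that excluded 0: -3.42 in ventral arch-like, -1.13 in dorsal arch 1-like and -1.80 in dorsal arch 2-like cells, but 1.38 in frontonasal-like cells, where the counts were 6 and 23 UMIs. At equal depth the frontonasal-like shares of *ccn2b* overlapped, at 0.331% (0.0401% to 1.19%) in DMSO and 1.16% (0.558% to 2.13%) in YM. *igfbp5b* was at -0.90 in ventral arch-like cells and at 0.54 in dorsal arch 2-like and 0.61 in posterior arch-like cells. In the posterior arch-like class, 1 YM cell held 17 *igfbp5b* UMIs. The equal-depth shares of that class overlapped, at 4.40% (2.67% to 6.78%) in DMSO and 7.56% (5.48% to 10.1%) in YM. The ventral arch-like value of *igfbp5b* was 0.43 without cell cycle regression. It was -0.024 without the cells of highest doublet score and after new clustering. With 1 library per condition, neither difference between classes was tested.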

How the results depend on the processing

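Within their classes, *cckb*, *ccn2b* in ventral arch-like cells and *fgfbp2a* were lower in YM by at least 2-fold under every alternative that gave a value. *ccn2b* ranged from -2.12 to -0.44 in dorsal arch 1-like and from -3.07 to -0.63 in dorsal arch 2-like cells, and *igfbp5b* from -1.46 to 0.43 in ventral arch-like cells. In all, 129 ratios stayed within the main counting interval, 26 left it without such a reversal, and 3 reversed, where only a ratio whose main interval excluded 0 could count as reversed. *fsta*, whose main intervals included 0 in ventral and dorsal arch 1-like cells, took both signs in both. Causes were not tested.

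With a limit of 3000 genes in both libraries, the ventral arch-like ratio was -5.84 for *cckb* and -0.46 for *igfbp5b*. With all 2000 variable genes, ventral arch-like cells gave -1.46 for *igfbp5b* and -0.31 for *fsta*, dorsal arch 1-like cells -1.02 for *fgfbp2a*, and dorsal arch 2-like cells -0.63 for *ccn2b* and -1.14 for *fgfbp2a*. Without cell cycle regression, ventral arch-like cells gave -4.82 for *cckb*, 0.43 for *igfbp5b* (reversed) and 0.36 for *fsta*, dorsal arch 1-like cells -3.21 for *fgfbp2a* and 0.46 for *igfbp5b*, and dorsal arch 2-like cells -3.07 for *ccn2b*. At resolution 1.2, *ccn2b* was at -2.12 in dorsal arch 1-like cells. Without the cells of highest doublet score and after new clustering, *igfbp5b* was at -0.024 in ventral arch-like cells. Thinned to 3500 UMIs, it was at -1.31 there, and *cckb* at -3.35 in dorsal arch 1-like cells.

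Taken as 1 class, arch 1 and 2-like cells gave -2.21 for *ccn2b*, 0.30 for *igfbp5b* (reversed against the ventral arch-like value) and 0.28 for *fsta*. All kept cells gave -1.81, 0.27 (reversed likewise) and 0.25. With at least 50 UMIs, 42, 39 and 23 genes were lower by at least 2-fold in the ventral, first dorsal and second dorsal class, and with at least 1 UMI 2029, 1956 and 1532, against 155, 151 and 139. TMM factors moved the ratios by 0.03, 0.04 and 0.07.

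With gates set on unthinned counts, the arch 1 *dlx5a*/*dlx6a*-positive gate in DMSO was at 73.7 CPM for *cckb* and 256 CPM for *igfbp5b*. With at least 2 UMIs of the gate genes it was at 127 CPM and 151 CPM, and *fsta* in the arch 2 gate at 146 CPM. Over both gate alternatives, 32 levels left the main counting interval and 28 stayed within it.

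Resolution 0.3 gave no value for the ventral arch-like and dorsal arch 2-like classes, nor did all 2000 variable genes for *cckb* in dorsal arch 1-like cells. In the latter case the class was named, but its cells of at least 1 library held no *cckb* UMI. No paired analysis was possible because each condition has 1 library, and for the same reason no replicate was left out. Counts under 20 UMIs limit *cckb* in arch 2 and every gene in blood-like cells.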

Other observations

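Cluster 16, named muscle and led by *actc1b*, *mylpfa* and *myhz2*, held 6 cells, all from the YM library, with a median of 15805.5 UMIs. They held 6 *cckb* UMIs (58.0 CPM, 21.3 to 126) and 16 *igfbp5b* UMIs (155 CPM, 88.4 to 251), and no UMI of *ccn2b*, *fgfbp2a* or *fsta*. Without a DMSO cell in the cluster, no comparison was made.

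Epidermal-like cells (48 in DMSO and 47 in YM) held 5 *cckb* UMIs in DMSO (17.0 CPM, 5.53 to 39.7) and 1 in YM, and 20 and 10 *igfbp5b* UMIs (68.1 and 41.9 CPM, log2 ratio -0.70, -1.96 to 0.46). The intervals of both libraries overlapped for each gene. No *fgfbp2a* UMI was found in these cells.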
